A study of Mus musculus with 6 samples.

Results

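The TRIM (tripartite motif) genes encode a large family of proteins, most of them ubiquitin ligases. CT26, a colon carcinoma line of the BALB/c mouse, listed 39 protein-coding genes whose symbol is Trim followed by a number, of 11604 genes in the count table. Trim25 was left out of the set by its rule, and the choice of members used no measured value. The 6 libraries were made from wild-type CT26 cells: 3 from cells given DMSO, the solvent, and 3 from cells given 10 µM irinotecan (CPT-11) for 24 h. Irinotecan is a prodrug whose product SN-38 traps DNA topoisomerase I on DNA and breaks replicating strands. The comparison of the groups asked which TRIM transcripts changed with the drug, in a study titled for the drug's effect on anti-tumor immunity. The data come from a single cultured line, and nothing in the labels tells whether replicates were grown as separate cultures. The p-values therefore reflect just the variation among these libraries, and that may be technical.

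Most TRIM proteins have an amino-terminal RING finger, which recruits a ubiquitin-conjugating enzyme, followed by B-box zinc fingers and a coiled coil that pairs subunits. A variable carboxy-terminal domain picks the substrate, and PRY-SPRY is the most frequent one. Many family members are induced by interferon and either restrict viruses or tune the signalling of RNA, DNA and Toll-like receptors. Others read chromatin marks, bind microtubules or control p53, the transcription factor activated by DNA damage.

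The libraries held 16052326 to 17294496 counts. No gene in the table had a count of 0 in any library, so the deposited table had already lost its rarest transcripts. RefSeq names 67 protein-coding TRIM genes by the same rule, and 28 of them, such as Trim5, Trim12a, Trim29 and Trim38, have no row in the table. A gene near the detection limit could have entered the table through the drug-treated libraries alone, so the counts of members below describe the listed genes and not the family. Markers of other cells were mostly without a row: 1 of 8 haematopoietic, 0 of 4 endothelial, 4 of 5 fibroblast and 2 of 8 epithelial or intestinal markers were listed. The defining epithelial genes Epcam, Cdh1, Krt8, Krt19, Cdx2 and Vil1 had no row, although the line is a carcinoma. Levels below are in CPM, the count scaled to library size. The listed epithelial markers went opposite ways: Krt18 fell from 53.1 ± 3.90 to 45.3 ± 2.63 CPM (SD, n = 3, edgeR adjusted p = 0.025), and Cdh17 rose from 0.90 ± 0.41 to 2.40 ± 0.44 CPM (SD, n = 3, edgeR adjusted p = 0.0047). Of the fibroblast markers the collagen gene Col1a1 rose from 168 ± 3.91 to 232 ± 2.12 CPM (SD, n = 3, log2 0.47, edgeR adjusted p = 2.4e-07), with groups far apart. The other 3, Col1a2 (1400 ± 15.2 and 1515 ± 24.1 CPM, SD, n = 3), Pdgfra and Pdgfrb, did not pass. The only haematopoietic marker listed, Cd68, ranged from 2.01 to 3.07 CPM in DMSO and from 3.72 to 4.23 CPM with irinotecan (log2 0.76, edgeR adjusted p = 0.018). The part of these markers in the results below was not tested. In bulk RNA, fewer cells of a type and less RNA per cell cannot be told apart.

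With irinotecan, 16 of the 39 TRIM genes rose, 2 fell and 21 did not pass the test (edgeR quasi-likelihood, Benjamini-Hochberg adjusted p under 0.05 over 11599 genes tested). Of all genes tested, 22.1% passed, 11.8% higher and 10.3% lower. In the family the shares were 46.2% in all, 41.0% higher and 5.13% lower. The median log2 fold change over the 39 genes was 0.19, against 0.00026 over all genes. The groups did not overlap in 20 members that were higher and 5 that were lower, where 19.3% and 17.8% of all genes tested showed the same. No test of the family as a set was made. Its rule used only gene names and biotype, but the family was chosen with earlier results of these data known. Without irinotecan replicate 1 the count over all genes dropped from 2559 to 1393, and 14 of the 18 TRIM genes kept their call. Without DMSO replicate 1 the order was reversed: the count over all genes was 2129, a ratio of 0.832, and that of TRIM genes 13, a ratio of 0.722. Under scaling by total counts alone, 66.1% of all calls were higher, against 53.5% here, and the same 18 TRIM genes passed. The authors' deposited table, whose log2 fold changes carry the opposite sign, gave an adjusted p under 0.05 for 17 of the 39, all of the 18 except Trim72.

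**Figure D1:**
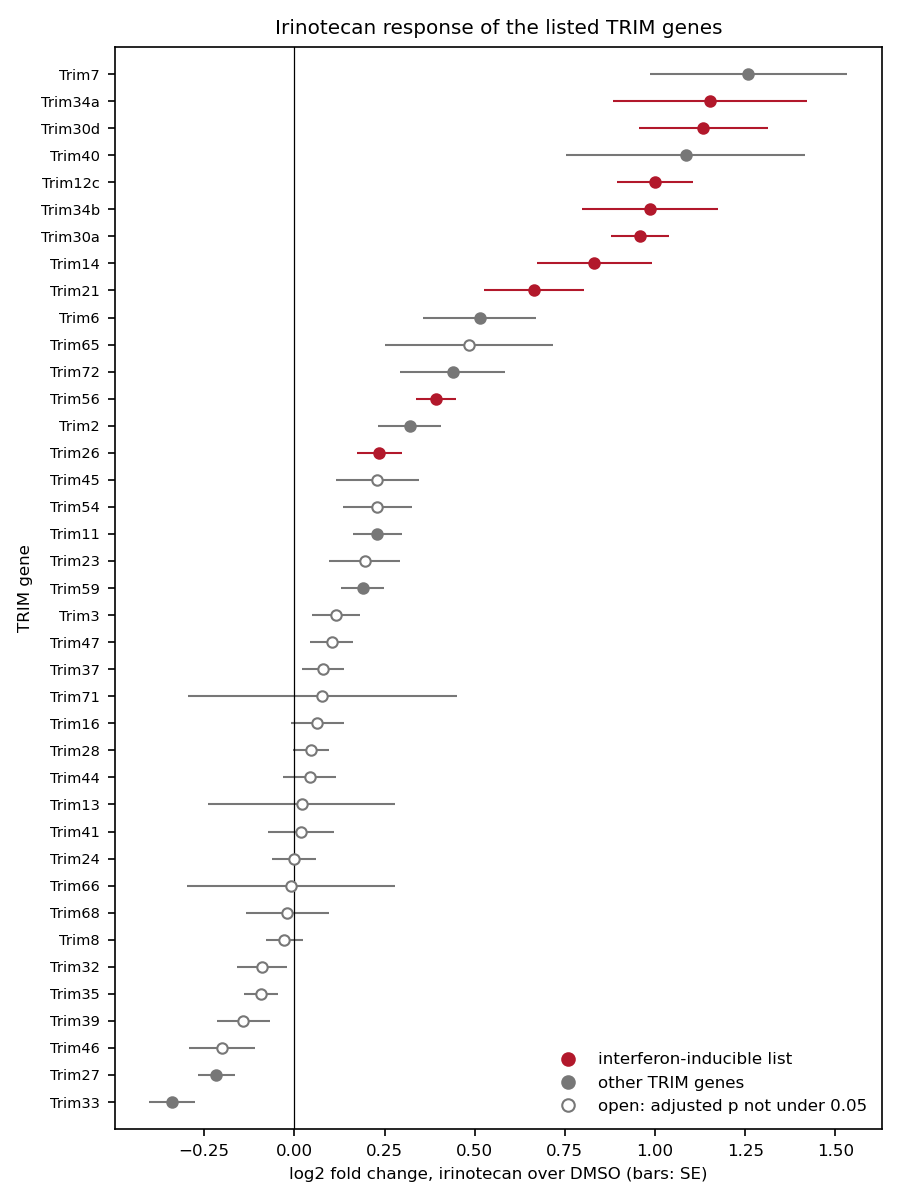
Log2 fold change with its standard error for each of the 39 listed TRIM genes, irinotecan over DMSO (n = 3 libraries per group), with genes of the interferon-inducible list in red. The values run from 1.26 for Trim7 to -0.34 for Trim33, and all 9 red genes lie to the right of 0 and are filled, meaning past the threshold.

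The 9 listed members of a set of 13 interferon-inducible TRIM genes all rose. Their median log2 fold change was 0.96, with a range from 0.24 to 1.15. The set was put together from textbook knowledge with earlier results known, so its direction is no independent evidence. Of the other 30 TRIM genes, 7 rose (23.3%) and 2 fell (6.67%), with a median of 0.07.

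Trim30a, which in mice restrains NF-kB signalling downstream of Toll-like receptors by removing TAB2 and TAB3, had the smallest p of the family. Its level was 29.95, 32.6 and 33.8 CPM in the DMSO libraries and 69.0, 54.8 and 63.5 CPM with irinotecan. Every irinotecan library lay far above every DMSO library. The log2 fold change was 0.96 ± 0.08 (SE), or 1.94-fold, with an edgeR adjusted p = 2.7e-08. Trim30d, its neighbour and paralog, stood at 4.58, 2.58 and 4.01 CPM in DMSO and at 8.56, 7.61 and 8.35 CPM with irinotecan. The rise in Trim30d was 2.19-fold (log2 1.13 ± 0.18, SE, adjusted p = 1.1e-04, edgeR), and the groups were again well apart.

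Trim12c is a mouse relative of primate TRIM5, the factor that binds incoming retroviral capsids. It rose from 13.2, 10.4 and 12.5 CPM in DMSO to 25.4, 21.7 and 25.2 CPM with irinotecan, a factor of 1.998 (log2 0.999 ± 0.11, SE, edgeR adjusted p = 5.7e-07). Trim34b stood at 3.64, 4.36 and 3.95 CPM in DMSO and at 9.37, 5.52 and 8.81 CPM with irinotecan. The groups of Trim34b did not overlap, but irinotecan replicate 2 lay close to the DMSO libraries (log2 0.99 ± 0.19, SE, adjusted p = 7.9e-04, edgeR). Trim34a, its near copy, gave 2.01, 1.17 and 2.43 CPM in DMSO and 5.57, 3.31 and 3.60 CPM with irinotecan. Its call (log2 1.15 ± 0.27, SE, edgeR adjusted p = 0.0041) was lost without irinotecan replicate 1, where the log2 fold change was 0.88 and the adjusted p 0.055, the highest of 13 alternatives that began at 2.0e-04.

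Reads of these paralogs can be confused. Cut into words of 50 bases, 59.7% of the Trim34a transcript words of GENCODE M21 and 56.8% of those of Trim34b also occur in another gene, mostly in each other. For Trim12c the share was 33.7%, mostly with Trim5 and Trim12a, and for Trim30a and Trim30d it was 5.98% and 7.49%. Trim34a, Trim34b and Trim12c are therefore uncertain as individual genes.

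Trim21, the cytosolic antibody receptor that sends antibody-coated viruses to the proteasome, was at 8.04, 10.3 and 7.90 CPM in DMSO and 16.5, 11.7 and 13.4 CPM with irinotecan. Irinotecan replicate 2 exceeded the highest DMSO library by a small margin, and the gene rose by 0.66 ± 0.14 on the log2 scale (SE, edgeR adjusted p = 0.0017). Trim14 lacks a RING finger and is known in human cells as an adaptor of mitochondrial antiviral signalling. It rose from 7.10, 5.83 and 7.60 CPM to 15.5, 9.76 and 11.3 CPM (log2 0.83 ± 0.16, SE, edgeR adjusted p = 8.4e-04). Trim14 overlaps Nans on the opposite strand by 9852 bases, and Nans, at 82.8 CPM in DMSO, rose by 0.19 (adjusted p = 0.031). Of the Trim14 transcript words of 50 bases, 33.9% occur in another gene, 29.5% in Nans. Reads from that shared stretch cannot be told apart, since the strandedness of the libraries is not given in the sources used here.

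Trim56 and Trim26 were the more abundant members of the interferon-inducible set. Trim56, a ligase of the STING and TLR3 pathways, was at 135, 146 and 157 CPM in DMSO and at 192, 184 and 200.3 CPM with irinotecan. This was a rise of 1.31-fold with clearly separate groups (log2 0.39 ± 0.06, SE, edgeR adjusted p = 3.0e-05). Trim26, which limits the nuclear pool of the interferon regulator IRF3, went from 55.1, 58.5 and 59.0 CPM to 64.8, 67.0 and 71.4 CPM. The groups of Trim26 were apart by a narrow gap (log2 0.24 ± 0.06, SE, edgeR adjusted p = 0.010), and omitting irinotecan replicate 3 ended the call (0.056, the highest of 13 alternatives, lowest 7.8e-04).

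**Figure D2:**
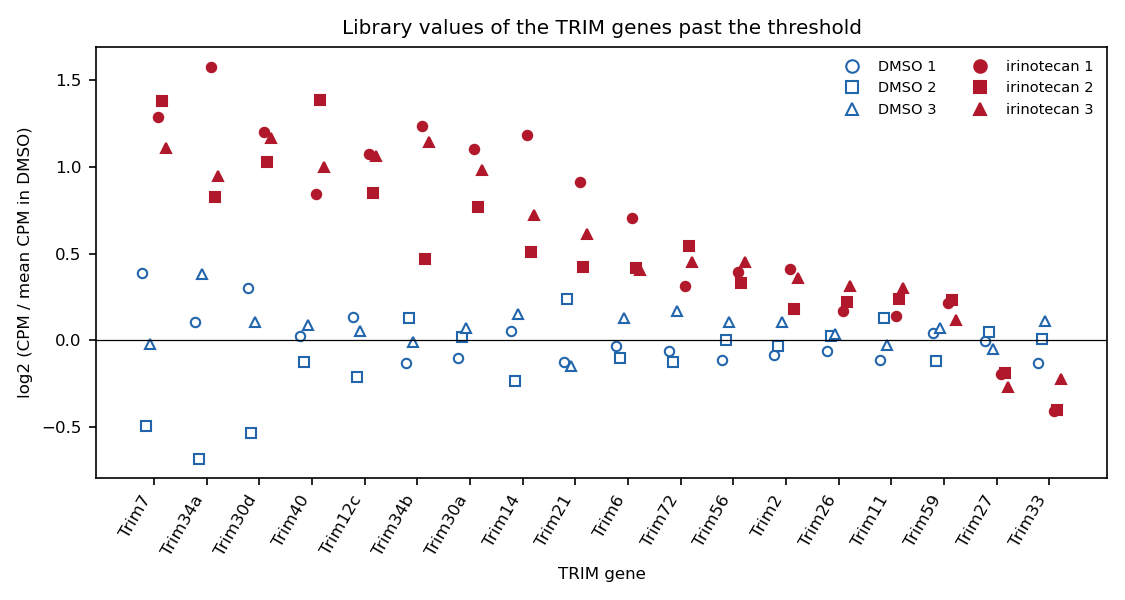
Log2 ratio of each library's CPM to the DMSO mean for the 18 TRIM genes past the threshold, with DMSO libraries open and irinotecan libraries filled. The groups do not overlap for any of the 18 genes, which were picked by the test on these same libraries, so the gap adds no evidence. Of all genes tested, 19.3% were higher and 17.8% lower without overlap. Among the strongly raised interferon-inducible genes irinotecan replicate 1 tends to be high and replicate 2 low.

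The interferon-inducible TRIM genes differed between the irinotecan libraries in a shared order. Irinotecan replicate 2 was the lowest of the 3 in 8 of the 9 genes, and replicate 1 the highest in 7. Among 8 interferon signalling genes that rose, replicate 2 was the lowest in 6 and replicate 1 the highest in 6. The 7 other TRIM genes that rose did not share this order: replicate 2 was the highest in 4 and the lowest in 1, and replicate 1 the highest in 2 and the lowest in 3. Over all 1369 genes that rose, replicate 2 was the lowest in 44.5% and replicate 1 the highest in 56.9%. Summed over the 9 genes, the level was 259, 272 and 289 CPM in DMSO and 407, 366 and 406 CPM with irinotecan, so the difference between groups exceeded that among libraries.

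The 31 TRIM genes with a RefSeq promoter window, 250 bases before to 50 after the gene start on GRCm38.p6, were searched on both strands for GAAA-NN-GAAA (N is any base), the core of the element bound by interferon-activated factors. It occurred in 7 members: Trim12c, Trim2, Trim21, Trim26, Trim30a, Trim30d and Trim34a. All 7 were among the 14 risers with a window, and none of the 17 other members had a match. Counted by gene in the same way, 3.99% of all genes with a window and 3.87% of the listed ones held the motif, as did 3.44% of the 32851 windows. A match is a description of letters and not proof of binding. Trim2, the carrier outside the interferon-inducible set, had its match 29 to 38 bases past the start, and its other windows held none. Stretches are shown for the 6 genes whose matches ended within 30 bases past the start, which leaves out Trim2. Matched bases are in capitals, with 25 bases on either side and at most 30 bases past the start, on the strand of the gene.
Trim30a: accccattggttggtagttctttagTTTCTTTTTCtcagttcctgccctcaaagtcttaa
Trim30d: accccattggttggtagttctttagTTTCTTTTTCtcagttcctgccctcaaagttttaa
Trim12c: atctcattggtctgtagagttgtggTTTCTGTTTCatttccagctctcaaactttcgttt
Trim34a: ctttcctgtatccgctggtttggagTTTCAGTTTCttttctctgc
Trim21: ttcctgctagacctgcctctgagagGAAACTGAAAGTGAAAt
Trim26: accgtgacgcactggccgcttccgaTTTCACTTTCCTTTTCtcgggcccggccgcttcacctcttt

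On GRCm38.p6 these stretches lie, in the same order, at chr7:104465195-104465254 (minus strand), chr7:104507856-104507915 (minus), chr7:104353344-104353403 (minus), chr7:104244442-104244486 (plus), chr7:102565453-102565494 (minus) and chr17:36836961-36837026 (plus). The stretches of Trim30a and Trim30d differ at 1 of 60 bases. Their matches sit 36 to 27 and 41 to 32 bases before the start, and that of Trim12c 29 to 20 bases before it. In Trim21 and Trim26 a pair of matches overlap, giving 16 capital bases that read GAAACTGAAAGTGAAA in Trim21, 14 to 29 bases past its start. Trim34a has its match 11 to 20 bases past the start. A further RefSeq window of Trim30a also held a match, but unlike the windows shown its start was not found in a GENCODE M21 transcript of the gene. Trim34b, which rose by 0.99 on the log2 scale, had no match in its window, nor had Trim56. The promoter of Trim30a is given at greater length, from 250 bases before to 30 past the start (chr7:104465164-104465443, minus strand, GRCm38.p6).
Trim30a: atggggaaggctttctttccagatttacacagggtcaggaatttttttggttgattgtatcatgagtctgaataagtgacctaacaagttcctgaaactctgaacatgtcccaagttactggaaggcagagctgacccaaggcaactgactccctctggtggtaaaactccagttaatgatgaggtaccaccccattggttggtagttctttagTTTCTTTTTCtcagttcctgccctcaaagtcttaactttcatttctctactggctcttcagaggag

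The motif TTCNNNGAA, known as the gamma-activated sequence, occurred in 2 of the 31 members with a window, Trim45 and Trim46, and in 9.55% of all genes with a window. Neither gene passed the test. The p53 decamer, the repeated unit of p53 response elements, occurred in 5 members (Trim24, Trim30a, Trim41, Trim46 and Trim6) and likewise in 9.55% of all genes with a window. Of these 5, Trim30a and Trim6 rose.

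Chromosome 7 carried 12 of the 39 members, and 8 of them rose, where 11.8% of all genes tested did. A block of 289 kb on GRCm39 (chromosome 7, 103868000 to 104157056) ran from Trim6 through Trim34a, Trim34b, Trim12c and Trim30a to Trim30d. These 6 were the only genes listed inside it, and all 6 rose, by 0.51 to 1.15 on the log2 scale. All of them except Trim6 were in the interferon-inducible set, as was Trim21, so the block is not a separate result. Their summed level was 58.3, 55.8 and 62.2 CPM in DMSO and 126, 99.6 and 116 CPM with irinotecan. Trim34b and Trim12c lie 1844 bases apart, on opposite strands, and Trim30a and Trim30d 4820 bases apart on the same strand. The members beyond the block were mixed: Trim21, at 102207128 to 102214693, rose, whereas Trim68 and Trim3 did not pass, at -0.02 ± 0.11 and 0.12 ± 0.07 (SE). Between Trim21 and Trim3, 3 of the 8 other listed genes rose and the rest did not pass. The 3 were Apbb1 (0.58), Usp17la (0.39) and Smpd1 (0.29).

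**Figure D3:**
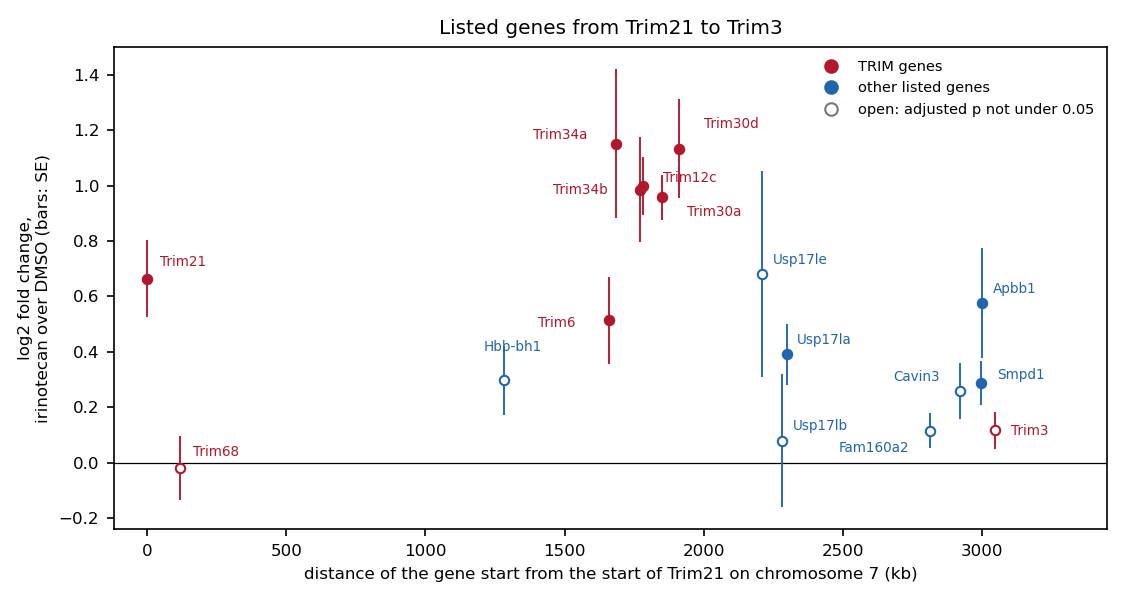
Log2 fold change with its standard error for every listed gene from Trim21 to Trim3 on chromosome 7, against distance in kb from the start of Trim21, with TRIM genes in red and other genes in blue. The 6 TRIM genes of the block lie between 0.51 and 1.15, and Trim68 and Trim3 are open and near 0.

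Among TRIM genes outside the interferon-inducible set, 7 rose, and most calls were less firm. Trim6, the first gene of the block, is known in human cells to build free ubiquitin chains that activate the kinase IKK-epsilon. It stood at 4.90, 4.66 and 5.47 CPM in DMSO and at 8.16, 6.68 and 6.63 CPM with irinotecan (log2 0.51 ± 0.16, SE, edgeR adjusted p = 0.023). Omitting any of DMSO replicates 1 and 2 and irinotecan replicate 1 ended that call (0.011 to 0.13 over 13 alternatives). Trim7, first described as a partner of glycogenin, had the largest log2 fold change of the family, from 27, 15 and 21 counts in DMSO to 55, 58 and 49 with irinotecan. Its groups were far apart in spite of the low counts (2.39-fold, log2 1.26 ± 0.27, SE, edgeR adjusted p = 0.0023), and the call held under all 13 alternatives.

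Trim40, a gut-enriched ligase that restrains NF-kB in human cells, rose from 13, 12 and 14 counts to 25, 36 and 28 counts. The log2 fold change was 1.09 ± 0.33 (SE, edgeR adjusted p = 0.023), and omitting any of DMSO replicates 1 and 2 and irinotecan replicate 2 ended the call (0.016 to 0.100 over 13 alternatives). Trim72, which reseals injured muscle membranes, went from 5.84, 5.58 and 6.87 CPM to 7.59, 8.88 and 8.35 CPM. Its call (log2 0.44 ± 0.14, SE, edgeR adjusted p = 0.034) was lost with DESeq2 (0.065) and in the fits that left out any of DMSO replicates 1 and 2 and irinotecan replicates 2 and 3 (0.017 to 0.12 over 13 alternatives). Of its transcript words of 50 bases, 23.8% are shared with the overlapping antisense lncRNA Gm15533.

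Trim2, a neuronal ligase of neurofilament light chain, rose by 24.8% from 22.5, 23.4 and 25.7 CPM to 31.7, 27.0 and 30.7 CPM. The edgeR adjusted p of 0.012 rose above 0.05 in the fits that omitted DMSO replicate 1 or irinotecan replicate 1 (0.0019 to 0.076 over 13 alternatives). Trim11, linked to the clearance of misfolded proteins, rose 1.17-fold from 59.4, 70.3 and 63.0 CPM to 70.9, 75.9 and 79.2 CPM (edgeR adjusted p = 0.018). Its groups were separated by less than 1 CPM, and omitting DMSO replicate 1 or irinotecan replicate 2 or 3 ended the call (8.5e-04 to 0.10 over 13 alternatives). Trim59, which is anchored in a membrane, rose 1.14-fold from 104, 93.6 and 107 CPM to 118, 119 and 110.1 CPM (edgeR adjusted p = 0.024). That call was lost without DMSO replicate 2 or irinotecan replicate 1 or 2 (0.0024 to 0.14 over 13 alternatives).

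The 2 TRIM genes that fell were moderately abundant and held their calls under all 13 alternatives. Trim33 (TIF1-gamma), a reader of histone marks that ubiquitinates the TGF-beta signal carrier SMAD4, went from 131, 144 and 155 CPM in DMSO to 109, 109 and 123 CPM with irinotecan. On GRCm39 the gene lies on chromosome 3 at 103186609 to 103266091. It fell by 20.9%, or -0.34 ± 0.06 on the log2 scale (SE, edgeR adjusted p = 6.1e-04), and its groups did not overlap. Trim27, found as the fusion partner of the RET oncogene, went from 141, 146 and 136 CPM to 123, 123 and 117 CPM. The gene, on chromosome 13 at 21363615 to 21378894, fell by 13.9% with groups apart (log2 -0.22 ± 0.05, SE, edgeR adjusted p = 0.0045).

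The chromatin readers with a PHD finger and bromodomain divided. Trim33 fell, and Trim28, Trim24 and Trim66 did not pass. Trim28 (KAP1) is the corepressor of KRAB zinc-finger proteins and a substrate of the DNA damage kinase ATM. It gave 511, 513 and 482 CPM in DMSO and 540, 526 and 488 CPM with irinotecan, so its groups overlapped (log2 0.05 ± 0.05, SE, edgeR adjusted p = 0.55). Trim24, a ligase of p53, was at 66.4, 64.7 and 60.9 CPM in DMSO and at 63.6, 62.8 and 65.7 CPM with irinotecan (log2 -2.3e-04 ± 0.06, SE). Trim66 stood near 2.30 and 2.29 CPM, with a standard error of 0.29 on its log2 fold change, so a moderate change was not detectable at this depth.

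Of 7 listed TRIM genes in a chosen p53-linked set, 1 rose, Trim59, and the other 6, Trim28 and Trim24 among them, did not pass. The share that rose, 14.3%, was near the 11.8% of all genes tested. The set need not hold every TRIM gene with a link to p53. Trim8, which stabilizes p53 in human cells, was at 188, 204 and 183 CPM in DMSO and at 184, 193 and 187 CPM with irinotecan (log2 -0.03 ± 0.05, SE). Trim32 and Trim39 had log2 fold changes of -0.09 ± 0.07 and -0.14 ± 0.07. Both were lower in every irinotecan library than in any DMSO library, as were 17.8% of all genes tested. Neither passed (edgeR adjusted p = 0.39 and 0.18). Trim65, a ligase of the RNA sensor MDA5, had 0.48 ± 0.23 with overlapping groups at 2.55 and 3.57 CPM (edgeR adjusted p = 0.15). It overlaps Trim47 on the same strand by 5365 bases.

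The 15 members that did not pass and were in neither the interferon-inducible nor the p53-linked set, Trim66 included, lay between -0.20 and 0.23 on the log2 scale, with a median of 0.06. Trim45, Trim54, Trim3 and Trim37, with log2 fold changes of 0.23, 0.23, 0.12 and 0.08, were higher in every irinotecan library than in any DMSO library. The nearest libraries stood at 12.35 and 12.33 CPM for Trim45 and at 80.3 and 80.1 CPM for Trim37. Trim35 was lower in every irinotecan library, from 371, 363 and 366 CPM to 329, 350.1 and 353 CPM (log2 -0.09 ± 0.05, SE, edgeR adjusted p = 0.16). Of all genes tested, 19.3% were higher and 17.8% lower in this way. Trim46, a microtubule organizer of the axon, had -0.20 ± 0.09 with overlapping groups. Trim23 and Trim47 had 0.20 ± 0.10 and 0.10 ± 0.06 with overlapping groups. Trim16, Trim44 and Trim41 had 0.06, 0.04 and 0.02, and Trim13 and Trim68 had 0.02 and -0.02. Trim71, the let-7 target known from stem cells, was held by only 14 to 24 counts per library (log2 0.08 ± 0.37, SE).

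Levels per gene length, in the FPKM values deposited by the authors, spanned 0.10 for Trim71 to 119 for Trim28 in DMSO. Trim28, Trim35 and Trim8, at 119, 78.5 and 51.0 FPKM, were the only members above 30. In the DMSO libraries Trim28 alone made up 22.2% to 23.6% of the summed FPKM of the family, and Trim35 14.9% to 15.4%. All 3 missed the threshold. The 16 genes that rose had a median of 2.23 FPKM in DMSO, and 11 of them lay under 5 FPKM, against a median of 8.83 FPKM among the 21 that did not pass. The summed CPM of the 39 genes was 2378 to 2417 in DMSO and 2509 to 2523 with irinotecan. Among the risers the most abundant in DMSO were Trim59, Trim11 and Trim56, at 29.95, 17.7 and 15.6 FPKM, and Trim30a reached 7.72 FPKM.

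**Figure D4:**
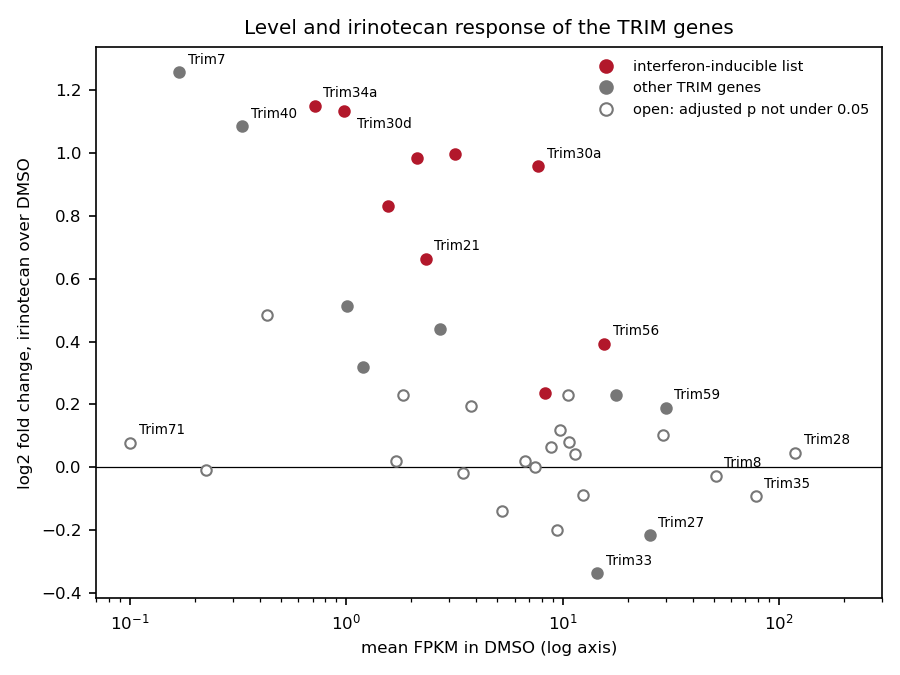
Log2 fold change of each TRIM gene against its mean FPKM in the DMSO libraries (log axis), with the interferon-inducible set in red and genes past the threshold filled. Trim28, Trim35 and Trim8, the members above 30 FPKM, are open and lie within 0.1 of 0, and the filled genes above 0.5 lie under 10 FPKM.

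Members were classed by carboxy-terminal domain, except Trim14, Trim16 and Trim44, which were classed by the lack of a RING finger. Trim46 was placed with the COS-box members although its class also carries a SPRY domain. The PRY-SPRY class held 18 listed members, of which 11 rose, 1 fell (Trim27) and 6 missed the threshold. These 18 therefore need not be all members that end in such a domain. The shares were 61.1% higher and 5.56% lower, against 11.8% and 10.3% of all genes tested. The median log2 fold change of the 18 was 0.46. Among the 11 were Trim30a, Trim30d, Trim12c, Trim34a, Trim34b, Trim21 and Trim26 of the interferon-inducible set, so the class is not a separate result. The others were Trim7, Trim6, Trim72 and Trim11. Of 4 members with NHL repeats, which bind RNA or substrates, 1 rose (Trim2). The 3 listed members with no recognized domain after the coiled coil included Trim56 and Trim40, which rose, and Trim8. Of the 3 listed members classed as without a RING finger, Trim14 rose, and Trim16 and Trim44 did not pass. Trim46 and Trim54 with COS boxes, Trim37 with a MATH domain, Trim23 with an ARF domain and Trim45 with a filamin domain each stood alone in their class and did not pass. Of the membrane-anchored members, Trim59 rose and Trim13 did not pass.

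TRIM proteins filed under other symbols gave 2 risers of 3 listed, where 11.8% of all genes tested rose. Pml, the scaffold of nuclear bodies, rose from 89.5, 96.3 and 95.5 CPM to 149.6, 132 and 146.5 CPM (log2 0.60 ± 0.06, SE, edgeR adjusted p = 1.3e-07). Mid2, a microtubule-bound ligase, rose by 0.29 ± 0.08 (edgeR adjusted p = 0.011). Its call was lost without DMSO replicate 2 or irinotecan replicate 2 (0.0012 to 0.061 over 13 alternatives). Mid1 stood at 0.07 ± 0.11.

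Of 16 listed E1 and E2 enzymes, which hand ubiquitin or ISG15 to the ligases, 2 rose and 3 fell, with a median of -0.06. The shares were 12.5% higher and 18.75% lower, against 11.8% and 10.3% of all genes tested. The risers were the E1 and E2 of the ubiquitin-like protein ISG15. Uba7 rose from 4.90, 4.05 and 5.53 CPM to 13.1, 9.41 and 11.3 CPM, and Ube2l6 from 41.4, 33.9 and 39.0 CPM to 71.8, 63.2 and 61.5 CPM, each with groups far apart. Ube2g2, of endoplasmic reticulum quality control, fell by 0.44 and Ube2w, which marks protein amino termini, fell by 0.39. The main ubiquitin E1, Uba1, fell by 0.15 (edgeR adjusted p = 0.016), which did not hold when DMSO replicate 1 or irinotecan replicate 2 or 3 was omitted (2.8e-04 to 0.089 over 13 alternatives). Ube2d3 and Ube2n, conjugating enzymes used by many TRIM ligases, did not pass, at -0.09 and -0.11.

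Of 18 partners of Trim28 in gene silencing, 3 rose (16.7%), 2 fell (11.1%) and 13 missed the threshold. Their median was 0.02. Of all genes tested, 11.8% rose and 10.3% fell. Setdb1, the histone methyltransferase recruited by Trim28, stood at 99.2 and 99.7 CPM, and Cbx5, heterochromatin protein 1 alpha, at 587 and 589 CPM. Daxx rose by 0.33 ± 0.08 (edgeR adjusted p = 0.0068), a call lost without irinotecan replicate 1 (0.066, the highest of 13 alternatives, lowest 4.7e-04). Chd3 rose by 0.23 ± 0.05, and Atf7ip by 0.19 ± 0.05, with the call of Atf7ip lost without DMSO replicate 2 or irinotecan replicate 3 (8.1e-04 to 0.072). Morc2a fell by 0.33. Hdac2 fell by 0.16 (edgeR adjusted p = 0.026), which did not hold under scaling by total counts or when any 1 library was omitted (0.0040 to 0.10 over 13 alternatives). In each of those fits 1 partner was lower in place of 2.

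Of 18 innate signalling partners of TRIM proteins, 3 rose (16.7%), 3 fell (16.7%) and 12 missed the threshold. Their median was -0.02. Of all genes tested, 11.8% rose and 10.3% fell. The RNA sensors rose: Ddx58, which encodes RIG-I, by 0.74 ± 0.07 and Ifih1, which encodes MDA5, by 0.71 ± 0.07 (SE, edgeR adjusted p = 7.7e-08 and 3.6e-07). Sting1 rose by 0.28 ± 0.07. Myd88, Nfkb1 and Tab2, the latter a substrate of Trim30a, fell by 0.25, 0.15 and 0.16 (edgeR adjusted p = 0.014, 0.037 and 0.039). The call of Myd88 was lost without DMSO replicate 2 (0.057, the highest of 13, lowest 0.0035). Those of Nfkb1 and Tab2 were each lost under 5 of 13 alternatives, scaling by total counts among them, with ranges of 0.0041 to 0.14 and 0.0023 to 0.18. The even split was therefore not stable: under scaling by total counts 5 rose and 1 fell, and with the replicate block 5 rose and 3 fell. Without DMSO replicate 2 all 3 lower calls were lost while 3 genes were higher, and without irinotecan replicate 2 just 1 gene was lower.

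Of 12 interferon signalling genes, 8 rose (66.7%, against 11.8% of all genes tested) and 4 did not pass. The 4 that did not pass were the receptor genes Ifnar1 and Ifnar2 and the kinase genes Jak1 and Tyk2, at -0.07, -0.14, -0.06 and 0.06.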

How the data were processed

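RNA of CT26 cells was sequenced in 3 DMSO and 3 irinotecan libraries. The submitters' processing notes name, with no role given, the build GRCm39 and edgeR 3.24.3, DESeq2 1.22.1, StringTie 1.3.4d, featureCounts 1.6.2, HISAT2 2.1.0 and fastp 0.19.3. The table deposited by the authors holds, per the file headers, whole-number counts and FPKM values (fragments scaled to gene length and library size) for 11604 genes. It also holds a log2 fold change, p-value and adjusted p-value per gene by the authors. FPKM was used only for levels between genes.

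The main test was edgeR 4.0.16 under R 4.3.3 (default filterByExpr, TMM, robust glmQLFit, glmQLFTest) on the deposited counts of 11599 genes, with Benjamini-Hochberg adjustment over all of them and a threshold of 0.05. All 39 members passed the filter. CPM values are TMM-normalized, and SE is the log2 fold change over the square root of F. DESeq2 1.42.0 and limma 3.58.1 (voom) were alternatives. The code was tested on simulated data. Total counts per library were 16052326 to 17294496. Depth, library spread and 3 libraries per group set the precision.

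Samples were grouped by their titles, which give 3 replicates per group although the design text says duplicate. The family and the lists were chosen with earlier results of these data known, although the rule for members used only gene names and biotype. Every member could be named. Of each related list, up to 3 higher and 3 lower genes with the smallest p were named, plus Pml and 1 gene that is not reported here, and other genes in the text were chosen after their values were seen. The gene listed as Ddx58 was matched to Rigi. Promoters are RefSeq, GRCm38.p6; 31 members matched. Coordinates of genes are from the table, GRCm39. Of 43 windows with a member's name, 35 had their last 50 bases in a GENCODE M21 transcript of the gene in the same orientation.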

Additional observations from a re-analysis of the deposited data

How the results depend on the processing

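Over 13 alternatives (other scaling, filters and tests, a block for the replicate number, and leaving out each library), 10 of the 18 called TRIM genes kept their call: Trim7, Trim12c, Trim14, Trim21, Trim27, Trim30a, Trim30d, Trim33, Trim34b and Trim56. The other 8 lost it under at least 1, as given beside each. The number of TRIM genes changed was 13 to 18 when a library was left out, with 17 under DESeq2 and 18 under limma-voom. Over all genes it was 1393 to 2362 (804 to 1211 higher, 589 to 1151 lower) when a library was left out, against 2559 (1369 and 1190), the lowest without irinotecan replicate 1. Without DMSO replicate 2, 726 were lower. Fewer libraries were fitted in each of these. The replicate numbers were not shown to pair the samples: deviations from the group means correlated at 0.12, 0.04 and 0.08 between same-numbered libraries, though each correlated best with its own number. With the replicate block 3628 genes passed, 1820 of them lower, and 4 TRIM genes were lower, Trim35 and Trim46 (adjusted p = 0.044 and 0.029) besides Trim27 and Trim33. The block also took the lower E1 and E2 enzymes from 3 to 6.

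Members near 0 that never passed changed sign. Trim24 gave 0.030 with total counts as the only scaling, 5.7e-04 with the stricter filter, 6.7e-04 with limma-voom and 2.0e-04 with the block. With total counts Trim66 gave 0.021, Trim68 0.011 and Trim8 0.0028. With a library left out the ranges were -0.035 to 0.027 (Trim24), -0.44 to 0.18 (Trim66), -0.11 to 0.029 (Trim68), -0.060 to 0.020 (Trim8), -0.24 to 0.22 (Trim71), -0.049 to 0.099 (Trim44), -0.16 to 0.39 (Trim13) and -0.038 to 0.11 (Trim41). Trim71 gave no value under the stricter filter. Depth limits Trim71, Trim66, Trim13, Trim65, Trim40, Trim7 and Trim34a, members with few counts. Trim34a, among the larger rises, had 32, 19 and 40 counts in DMSO.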
